A study of Mus musculus with 18 samples.

Results

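The small leucine-rich proteoglycans (SLRPs) are secreted matrix proteins, and 10 of their genes were followed here through cultured mouse mammary fibroblasts. The genes are Dcn, Lum, Bgn, Fmod, Ogn, Prelp, Omd, Aspn, Podn and Ecm2. They were chosen by gene symbol from a named list and not by their values. All 10 were found among the 55486 genes of the count table, and all 10 were among the 14273 genes that passed the filter on low counts. Polyadenylated RNA was sequenced from normal fibroblasts (NFs) of the FVB/n mammary gland, which had been sorted by the surface peptidase CD26 and then grown in culture. Glands of several adult female mice were pooled for a sort, and epithelial (EpCAM, CD49f), blood (CD45) and endothelial (CD31) cells were gated out. There were 4 groups: CD26- NFs in control conditioned medium (n = 3), CD26- NFs in tumour conditioned medium (CM, n = 6), CD26+ NFs in control conditioned medium (n = 3) and CD26+ NFs in tumour CM (n = 6). The cells were kept in these media for 7 days. Tumour CM came from 6 lines, named 13-MCB-17, 10-SJK-221, 18-MCB-12, 13-MCB-44, 13-MCB-90 and 13-MCB-138, of a mouse model of invasive lobular carcinoma in which Cre, driven by Wap, acts in mammary epithelium. In each cell type 1 culture received the CM of a given line, and the spread in the CM groups therefore includes the variation among lines. The labels do not state whether the libraries of a group came from separate sorts, and the p-values then measure only the spread between these cultures, which may be technical.

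SLRPs have a protein core of leucine-rich repeats that binds collagen, and most members carry chains of chondroitin, dermatan or keratan sulfate. By lying along collagen fibrils they govern fibril diameter and spacing, and several also bind growth factors such as TGF-beta or act on cell surface receptors. The family is divided into classes. Class I holds decorin (Dcn), biglycan (Bgn) and asporin (Aspn). Class II holds fibromodulin (Fmod), lumican (Lum), PRELP (Prelp) and osteomodulin (Omd), class III holds osteoglycin (Ogn), and class V holds podocan (Podn). Ecm2 encodes a related leucine-rich matrix protein. Fibroblasts are a main source of decorin and lumican in connective tissue, the mammary stroma included.

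Of the 10 genes, 8 lie in 3 short chromosomal runs, a well known trait of the family. In GRCm38 coordinates, Prelp (chr1:133910304-133921414, minus strand) and Fmod (chr1:134037254-134048277, plus strand) are 115.8 kb apart. Dcn (chr10:97479609-97518143) and Lum (chr10:97565128-97572703) are both on the plus strand and 47.0 kb apart. Ecm2 (chr13:49504810-49532789), Aspn (chr13:49544443-49567565), Omd (chr13:49582462-49592822) and Ogn (chr13:49608046-49624501) follow each other on the plus strand with gaps of 11.7, 14.9 and 15.2 kb. Podn (chr4:108014791-108096445, minus strand) and Bgn (chrX:73483602-73495933, plus strand) stand alone. Neighbours within a run did not all respond alike to tumour CM, as given below, and the 250 bases before the RefSeq transcription start (GRCm38.p6) are shown for the chromosome 1 and chromosome 13 runs because of this. RefSeq windows were at hand for 8 of the 10 genes, not for Dcn and Lum. Capitals mark matches to the TATA box letters TATAAA on either strand.
Prelp (chr1:133921402-133921651, minus strand): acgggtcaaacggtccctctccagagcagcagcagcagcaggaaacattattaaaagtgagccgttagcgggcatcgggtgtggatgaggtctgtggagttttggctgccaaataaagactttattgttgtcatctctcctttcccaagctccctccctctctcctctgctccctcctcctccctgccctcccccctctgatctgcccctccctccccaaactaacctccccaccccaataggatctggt
Fmod (chr1:134037004-134037253, plus strand): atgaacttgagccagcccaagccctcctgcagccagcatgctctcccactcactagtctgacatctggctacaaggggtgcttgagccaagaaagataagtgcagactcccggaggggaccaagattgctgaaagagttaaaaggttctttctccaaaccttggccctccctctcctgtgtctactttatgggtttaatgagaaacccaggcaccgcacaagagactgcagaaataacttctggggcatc
Ecm2 (chr13:49504560-49504809, plus strand): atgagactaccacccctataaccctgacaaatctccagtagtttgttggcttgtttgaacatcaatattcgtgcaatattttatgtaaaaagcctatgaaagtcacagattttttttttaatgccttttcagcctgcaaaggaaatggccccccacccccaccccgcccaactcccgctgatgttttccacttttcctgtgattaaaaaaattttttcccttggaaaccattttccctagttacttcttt
Aspn (chr13:49544193-49544442, plus strand): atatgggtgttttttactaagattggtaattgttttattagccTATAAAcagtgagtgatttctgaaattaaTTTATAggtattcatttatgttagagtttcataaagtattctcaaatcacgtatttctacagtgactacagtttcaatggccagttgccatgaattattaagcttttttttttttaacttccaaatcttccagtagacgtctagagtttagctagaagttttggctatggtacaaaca
Omd (chr13:49582212-49582461, plus strand): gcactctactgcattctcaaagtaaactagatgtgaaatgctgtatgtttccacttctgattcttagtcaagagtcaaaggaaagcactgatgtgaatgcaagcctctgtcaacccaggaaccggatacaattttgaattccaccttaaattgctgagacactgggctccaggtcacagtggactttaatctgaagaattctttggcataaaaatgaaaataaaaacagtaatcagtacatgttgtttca
Ogn (chr13:49607765-49608014, plus strand): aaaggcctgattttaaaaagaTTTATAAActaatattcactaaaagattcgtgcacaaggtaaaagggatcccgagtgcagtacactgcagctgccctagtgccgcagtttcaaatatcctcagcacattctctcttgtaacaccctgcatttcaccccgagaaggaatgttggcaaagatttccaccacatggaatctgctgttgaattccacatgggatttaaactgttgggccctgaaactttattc
Aspn and Ogn each held 2 matches to TATAAA, which overlap each other in Ogn, and the windows of the other 6 genes held none. Among 32851 mouse windows of the same length, 12.4% held these letters. The letters TGANTCA (AP-1), TGACGTCA (CRE) and GGGANTTCC (NF-kB) were searched on both strands as well and were found in 0 of the 9 windows of the 8 genes, against 6.75%, 1.55% and 1.43% of all windows. A looser NF-kB pattern, GGGANNNNCC, was searched first and matched 1 of the 2 windows of Podn and no other, against 17.6% of all windows, and the stricter letters replaced it after that match was known. All of these motifs were chosen after the expression values were seen. The GC content of the chromosome 13 windows was 40% for Ecm2, 30% for Aspn, 38.4% for Omd and 42% for Ogn, and that of the chromosome 1 windows was 55.6% for Prelp and 51.2% for Fmod, beside a median of 52.4% over all windows. The run on chromosome 13 thus had a more AT-rich upstream sequence than the pair on chromosome 1.

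Total counts ran from 9725723 to 14585349 per library over the 18 libraries. Dpp4, which encodes CD26, was near 0 in control medium in both cell types (0 to 0.171 CPM, counts relative to the scaled library size, in CD26- NFs and 0 to 0.0809 CPM in CD26+ NFs) and had 0.0776 to 0.881 CPM in CD26- and 0.715 to 7.80 CPM in CD26+ NFs in CM, so that transcripts of the sorting marker overlapped between the labelled cell types in both media. In CM the median of Dpp4 was 0.326 CPM in CD26- and 3.16 CPM in CD26+ NFs, and the fitted log2 difference was 3.23 ± 0.53 (SE). The 7 fibroblast markers, 3 of them collagen genes, summed to 14780 to 16522 CPM in CD26- controls and 7255 to 19197 CPM in CD26- CM. In CD26+ NFs they summed to 59819 to 76556 CPM in controls and to 22822 to 48923 CPM in CM, with no overlap. The collagen genes carry this sum, and Pdgfra (404 to 471 CPM in CD26+ controls and 613 to 1141 CPM in CD26+ CM) and Pdgfrb (667 to 784 and 791 to 863 CPM) were higher in CM, Fap was lower (10.4 to 15.0 and 4.97 to 9.59 CPM) and Thy1 overlapped. The 9 epithelial markers were all detected, and summed to 2944 to 4857 CPM over the 9 CD26- libraries and 668 to 1615 CPM over the 9 CD26+ libraries. The 7 immune markers summed to 14.6 to 29.7 CPM over the 18 libraries, most of it from Csf1r (11.0 to 26.8 CPM). Cd68 and Lyz2 reached 48 counts, while Ptprc, the gene of CD45, reached 3 counts. Replicate 18, CD26+ NFs given CM of 13-MCB-138, stood closest to its controls, with a root mean square log2 distance of 0.417 from the CD26+ control mean against 0.594 to 0.761 for the other 5 CD26+ CM libraries. It was also the CD26+ CM library nearest to the control mean for 6 of the 10 SLRP genes.

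Biglycan dominated the family in control medium and in CD26- CM, and decorin neared its level in CD26+ CM. Levels of different genes are compared as CPM per kilobase of the longest coding transcript. On this scale Bgn had 1509 ± 60.7 (SD, n = 3) in CD26- control, 1459 ± 225 (SD, n = 6) in CD26- CM, 2987 ± 164 (SD, n = 3) in CD26+ control and 2574 ± 440 (SD, n = 6) in CD26+ CM libraries. Among 13014 tested coding genes these levels had ranks 7, 8, 5 and 2. Dcn had 63.7 ± 3.36, 397 ± 95.7, 222 ± 22.9 and 2028 ± 640 CPM per kb in the same order of groups, and moved from rank 911 to rank 96 in CD26- NFs and from rank 215 to rank 7 in CD26+ NFs. By mean level Fmod followed in every group, at 25.0 to 85.7 CPM per kb. In CD26- control libraries the order went on with Aspn, Ogn, Lum, Prelp, Podn, Ecm2 and Omd, and the only neighbours whose libraries overlapped were Prelp and Podn. In CD26+ control libraries Aspn and Ogn, Podn and Prelp, and Ecm2 and Omd overlapped. In CD26- CM libraries Fmod and Lum, Ogn and Prelp, Prelp and Aspn, Podn and Ecm2, and Ecm2 and Omd overlapped. In CD26+ CM libraries the ranges of Bgn and Dcn overlapped, each gene from Prelp down to Podn overlapped the one above it, and so did Ecm2 and Omd. Omd had the lowest level on this scale in all 4 groups. With the union of all exons as the length, Ecm2 was the lowest in both control groups and Omd in both CM groups, Fmod stood above Dcn in both control groups, and Lum stood above Fmod in CD26- CM.

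**Figure D1:**
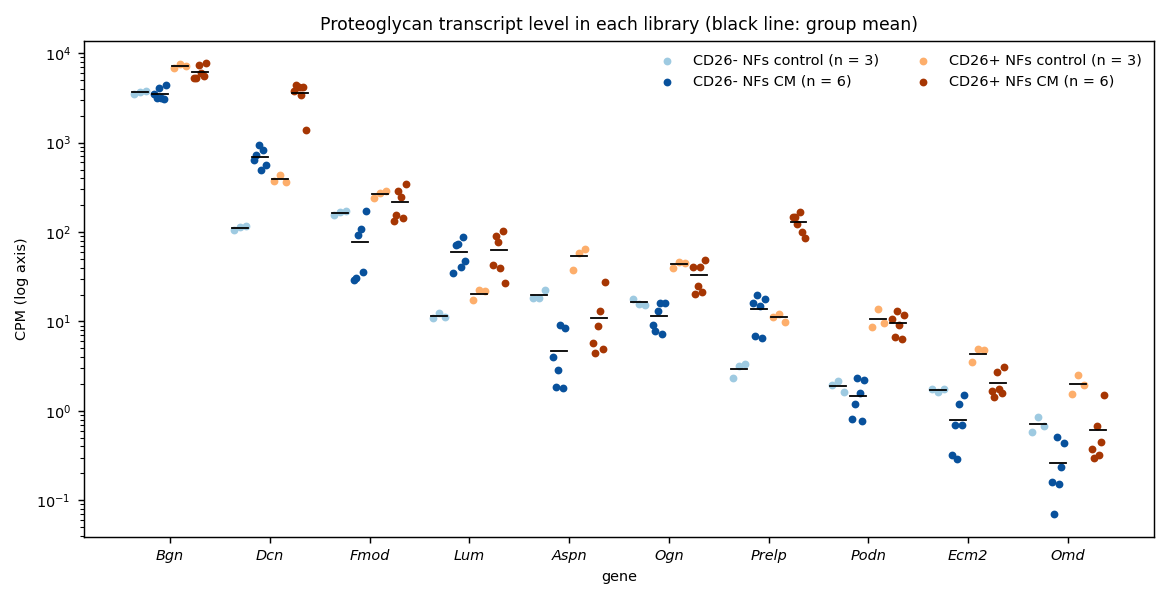
CPM of the 10 SLRP genes on a log axis, with 1 point per library, the 4 groups in colour and a black line at each group mean. Dcn and Prelp lie highest in CD26+ NFs in CM, with the lowest Dcn point of that group, 1378 CPM, from replicate 18, while Aspn, Ecm2 and Omd lie lower in CM than in control medium.

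The make-up of the family shifted accordingly. Dcn accounted for 3.87% ± 0.0708 (SD, n = 3) of the summed SLRP level per kilobase in CD26- control and 20.8% ± 4.57 (SD, n = 6) in CD26- CM libraries. In CD26+ NFs its share was 6.61% ± 0.418 (SD, n = 3) in control medium and 42.2% ± 12.1 (SD, n = 6) in CM, or 46.8% ± 4.38 (SD, n = 5) in CM without replicate 18. The share of Bgn went the other way, with 91.6% and 76.1% in CD26- NFs and 89.1% and 54.6% in CD26+ NFs. Expressed as a ratio per kilobase, Dcn to Bgn was 0.0422 and 0.277 in CD26- NFs and 0.0742 and 0.828 in CD26+ NFs, the last being 0.944 without replicate 18. With the union of exons the same means of the ratio over libraries were 0.0320, 0.210, 0.0563 and 0.629. Together the 10 genes took 0.417%, 0.460%, 0.761% and 0.976% of all counts in the 4 groups.

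**Figure D2:**
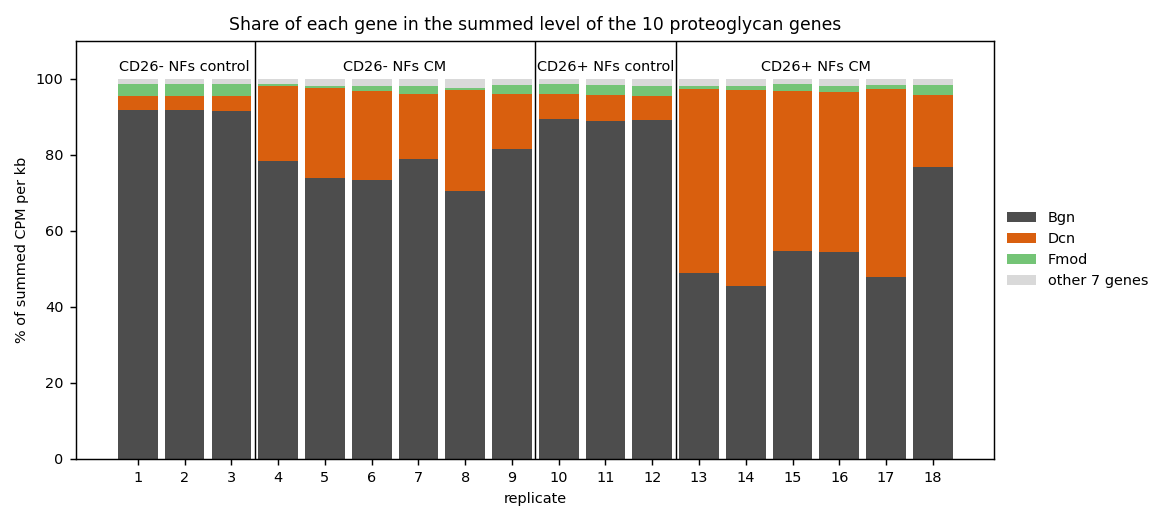
Share of Bgn, Dcn, Fmod and the other 7 genes in the summed CPM per kb of the family, in percent, with 1 bar per library. Dcn holds 14.3% to 26.5% in CD26- CM libraries and 18.9% to 51.7% in CD26+ CM libraries, where replicate 18 gives the lowest value.

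Tumour CM was compared with control medium in each cell type to ask what factors released by tumour cells change in these fibroblasts. Decorin, lumican and PRELP transcripts rose in both cell types and asporin fell in both. In CD26- NFs, 3 of the 10 genes rose and 1 fell at an FDR (the Benjamini-Hochberg adjusted p of edgeR's quasi-likelihood test over all tested genes) under 0.05, where 7.88% of tested genes rose and 7.28% fell. All 4 also passed the study's limit of a log2 fold change over 2 or under -2, which 0.904% of tested genes passed. In CD26+ NFs, 3 rose and 3 fell against 15.2% and 13.4% of tested genes, and 3 passed the log2 limit against 2.01%. The median log2 fold change of the 10 genes was -0.42 in CD26- NFs and -0.25 in CD26+ NFs, with medians of 0.01 and -0.00 over all tested genes, so the family moved in both directions rather than as a block. Markers of other cells moved with CM in CD26- NFs as well: the 5 skeletal muscle markers summed to 1.08 to 1.36 CPM in controls and 4.21 to 39.2 CPM in CM, with Myog at 0.0968 to 0.271 and 1.12 to 14.4 CPM, and the 4 adipocyte markers to 14.3 to 16.0 and 16.9 to 27.9 CPM. In CD26+ NFs the muscle markers had at most 0.444 CPM in sum, and the adipocyte sums overlapped. The part of these cells in the SLRP result was not tested.

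Decorin, which binds collagen I and TGF-beta and is a ligand of EGFR and MET, rose in both cell types with no overlap between CM and control libraries. Dcn measured 106, 112 and 117 CPM in the 3 CD26- control libraries. In CD26- CM it measured 634, 734, 935, 492, 831 and 556 CPM in replicates 4 to 9 (lowest 492, median 684, highest 935). The rise was 6.23-fold (log2 2.64 ± 0.30 SE, edgeR FDR 8.75e-05). In CD26+ NFs the controls had 368, 436 and 366 CPM, and the CM libraries ranged from 1378 to 4408 CPM with a median of 3986 CPM. The lowest was replicate 18, and the other 5 lay between 3430 and 4408 CPM, all far above the controls. The rise was 9.15-fold (log2 3.19 ± 0.31 SE, edgeR FDR 1.48e-06), and the log2 fold change was 3.35 without replicate 18.

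Prelp encodes a class II SLRP with a basic N-terminal region that binds heparan sulfate, and it links basement membrane proteoglycan to collagen. It had 2.32, 3.16 and 3.32 CPM in CD26- controls and 6.60 to 20.0 CPM, with a median of 15.4 CPM, in CD26- CM. The groups did not overlap, and the rise was 4.58-fold (log2 2.20 ± 0.39 SE, edgeR FDR 0.00170). The CD26+ controls had 11.1, 12.2 and 9.94 CPM and the CD26+ CM libraries between 85.7 and 169 CPM, with a median of 135 CPM. This rise of 11.6-fold (log2 3.54 ± 0.32 SE, edgeR FDR 9.78e-07) was the highest fold among the 10 genes in either cell type.

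Lumican, a keratan sulfate proteoglycan that spaces collagen fibrils, lies next to decorin on chromosome 10. Lum had 10.8, 12.3 and 11.2 CPM in CD26- controls and 34.6 to 88.4 CPM, with a median of 59.0 CPM, in CD26- CM. Its rise was 5.19-fold (log2 2.38 ± 0.42 SE, edgeR FDR 0.00154). In CD26+ NFs the controls had 17.2, 22.3 and 21.7 CPM and the CM libraries 26.6 to 102 CPM, with a median of 60.1 CPM. Replicate 18 was again the lowest of them and the nearest to the controls, yet no library overlapped. Here Lum rose 3.08-fold (log2 1.62 ± 0.39 SE, edgeR FDR 0.00465), under the study's log2 limit.

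Asporin, the class I member with a stretch of aspartate residues, binds collagen and TGF-beta. Aspn had 18.3, 18.4 and 22.5 CPM in CD26- controls and 1.78 to 9.23 CPM, with a median of 3.43 CPM, in CD26- CM. No CM library reached a control library, and the level was 4.26-fold lower (log2 -2.09 ± 0.52 SE, edgeR FDR 0.0128). Without CD26- control replicate 3 the FDR was 0.0664, and the call was lost. In CD26+ NFs the controls had 38.0, 58.7 and 65.2 CPM and the CM libraries 4.43 to 28.0 CPM, with a median of 7.28 CPM. The level fell 5.04-fold (log2 -2.33 ± 0.46 SE, edgeR FDR 0.00125). The highest CM value, 28.0 CPM, was that of replicate 18, and without it the log2 fold change was -2.88.

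Osteomodulin, a keratan sulfate proteoglycan best known from bone, and Ecm2 were low in all libraries. Omd had 19, 34 and 26 counts in the CD26+ controls and 4 to 17 counts in CD26+ CM, or 1.54, 2.52 and 1.93 CPM against 0.300 to 1.52 CPM. The fall was 3.35-fold (log2 -1.74 ± 0.40 SE, edgeR FDR 0.00329), and the log2 fold change was -2.24 without replicate 18. Ecm2 had 3.48, 4.89 and 4.75 CPM in CD26+ controls and 1.43 to 3.13 CPM in CD26+ CM, a fall of 2.15-fold (log2 -1.11 ± 0.30 SE, edgeR FDR 0.00950). For both genes the CM libraries lay below the controls. In CD26- NFs, Omd had 6 to 10 counts in controls and 1 to 7 in CM (log2 -1.42 ± 0.55 SE, edgeR FDR 0.0874), and Ecm2 had 1.62 to 1.76 CPM in controls and 0.293 to 1.50 CPM in CM (log2 -1.13 ± 0.38 SE, edgeR FDR 0.0527). Neither passed edgeR's test there, while Ecm2 passed with DESeq2, the study's tool (log2 -1.15, DESeq2 adjusted p 0.0216). Without replicate 18, which enters through the shared spread, the edgeR FDRs of these 2 genes in CD26- NFs were 0.0275 and 0.0379, and Ecm2 also passed without replicate 7 (edgeR FDR 0.0288) or 9 (edgeR FDR 0.0167). The 8 tendon, cartilage and bone markers, cells in which asporin and osteomodulin are well known, summed to 311 to 345 CPM in CD26+ controls and 167 to 242 CPM in CD26+ CM, and to 181 to 199 CPM and 144 to 162 CPM in CD26- NFs. Within the list, CD26+ controls and CM libraries had 15.4 to 16.9 and 0.750 to 6.26 CPM of Tnmd and 82.1 to 98.5 and 22.7 to 76.8 CPM of Sp7, while those of Scx (2.30 to 3.97 and 1.50 to 2.46 CPM) and Mkx (1.85 to 2.59 and 2.18 to 3.22 CPM) overlapped. The part of these markers in the result was not tested. In these bulk cultures fewer cells of a type and less RNA per cell cannot be told apart.

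The other 4 genes did not pass the test for CM in either cell type. Biglycan, an activator of Toll-like receptors 2 and 4 when soluble, had 3481 to 3749 CPM in CD26- controls and 3043 to 4357 CPM in CD26- CM (log2 -0.05 ± 0.13 SE, edgeR FDR 0.847). In CD26+ NFs it had 6809 to 7601 CPM in controls and 5295 to 7722 CPM in CM (log2 -0.21 ± 0.13 SE, edgeR FDR 0.243). The abundant partner of decorin thus had a small estimated change with a tight error. Fibromodulin, which guides collagen cross-linking, had 153 to 170 CPM in CD26- controls and 29.3 to 170 CPM in CD26- CM (log2 -1.07 ± 0.44 SE, edgeR FDR 0.111), and its spread followed the CM line, as described below. Without replicate 9 it passed, at log2 -1.46 (edgeR FDR 0.0195). In CD26+ NFs its log2 fold change was -0.29 ± 0.45 (SE, edgeR FDR 0.674). Ogn had log2 fold changes of -0.49 ± 0.30 and -0.42 ± 0.27 (SE) in CD26- and CD26+ NFs, and Podn of -0.35 ± 0.37 and -0.16 ± 0.25 (SE), with edgeR FDRs from 0.259 to 0.681.

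**Figure D3:**
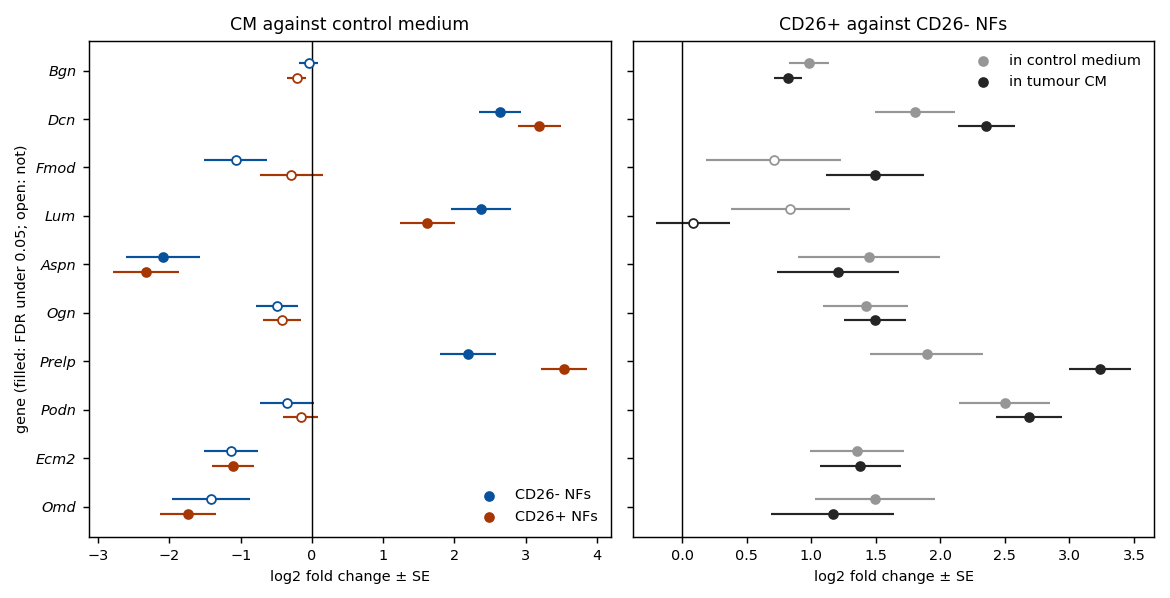
Log2 fold changes with their SE for each gene, CM against control medium on the left and CD26+ against CD26- NFs on the right, with filled points past an FDR of 0.05. On the left Dcn, Lum and Prelp lie right of 0 and Aspn lies left of 0 in both cell types, and on the right all points lie right of 0, with Lum in CM at 0.08.

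Whether CM acted differently on the cell types was asked with the difference between the CM effects. None of the 10 genes passed at an FDR under 0.05 with edgeR, where 4.53% of tested genes passed with a higher and 3.01% with a lower CM effect in CD26+ NFs, and 0.392% passed with the log2 limit as well. At an unadjusted p under 0.05 there was 1, Prelp, whose effect was higher by 1.34 ± 0.52 (SE) in CD26+ NFs (edgeR FDR 0.116, DESeq2 adjusted p 0.0323). The difference was 0.55 ± 0.37 (SE) for Dcn (edgeR FDR 0.376), and 0.71 without replicate 18 (edgeR FDR 0.0355). It was -0.75 ± 0.54 (SE) for Lum and 0.79 ± 0.64 (SE) for Fmod, with FDRs of 0.418 and 0.483. With the CM line as a block, which compares the cell types within each line, both passed: Lum with -0.81 (edgeR FDR 0.0259) and Fmod with 0.98 (edgeR FDR 0.0114). The rise of Lum was then smaller in CD26+ NFs, and the estimate for Fmod was the higher one in CD26+ NFs, although its CM effect passed in neither cell type. For the remaining 6 genes the differences lay between -0.32 and 0.19.

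In these cultures most of the SLRP transcripts were higher in CD26+ than in CD26- NFs in control medium. Of the 10 genes, 8 were higher and 0 lower, where 25.0% of tested genes were higher and 25.4% lower, and 1 passed the log2 limit against 5.97%. Podocan, an SLRP found in vessel wall and kidney matrix, differed most: Podn had 1.94, 2.14 and 1.62 CPM in CD26- and 8.58, 13.9 and 9.57 CPM in CD26+ controls, a 5.65-fold difference (log2 2.50 ± 0.35 SE, edgeR FDR 1.35e-05). Prelp was 3.72-fold (edgeR FDR 0.00152) and Dcn 3.48-fold higher (edgeR FDR 0.000111), with libraries as given above and no overlap. For Dcn this is the opposite direction to the paper's single cells, which were not cultured. There the paper lists Dcn and Lum among the matrix genes of CD26- NFs. It also reports that CD26+ NFs quickly lose CD26 in culture. Osteoglycin, a class III keratan sulfate proteoglycan, had 18.0, 15.6 and 15.4 CPM in CD26- and 39.3, 46.7 and 44.9 CPM in CD26+ controls, a 2.68-fold difference (edgeR FDR 0.00146). Omd, Aspn and Ecm2 were 2.81-, 2.73- and 2.55-fold higher with FDRs of 0.0127, 0.0359 and 0.00471, and Bgn was 1.98-fold higher (log2 0.99 ± 0.16 SE, edgeR FDR 4.62e-05). Lum (log2 0.84 ± 0.46 SE, edgeR FDR 0.142) and Fmod (log2 0.71 ± 0.52 SE, edgeR FDR 0.276) did not pass in the fit of all libraries. Their control libraries were apart all the same. Lum had 10.8 to 12.3 CPM in CD26- and 17.2 to 22.3 CPM in CD26+ controls, and Fmod 153 to 170 and 243 to 287 CPM. In a fit of only the control groups both passed (edgeR FDRs 6.72e-05 and 2.67e-06). The call of Aspn was lost without replicate 1, 2, 3, 11 or 12 (edgeR FDRs 0.0668 to 0.103) and with DESeq2 (log2 1.45, DESeq2 adjusted p 0.0760), and that of Omd was lost without replicate 11 (edgeR FDR 0.0554). The median log2 difference over the 10 genes was 1.43, beside 0.01 over all tested genes.

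The cell types also differed in the markers of other cells. In control medium Krt18, an epithelial keratin, had 1428 to 1609 CPM in CD26- and 181 to 362 CPM in CD26+ NFs, and Cdh1, which encodes E-cadherin, had 455 to 460 and 50.7 to 115 CPM. The sort was meant to exclude EpCAM-positive cells, yet Epcam itself had 224 to 243 and 39.9 to 78.8 CPM. The fibroblast genes Pdgfrb, Pdgfra and Col1a1 were higher in CD26+ NFs by log2 0.43, 0.98 and 1.93. The 8 tendon, cartilage and bone markers summed to 181 to 199 CPM in CD26- and 311 to 345 CPM in CD26+ controls, but its members differed in direction. Tnmd had 0.678 to 1.45 CPM in CD26- and 15.4 to 16.9 CPM in CD26+ controls and Sp7 15.3 to 19.8 and 82.1 to 98.5 CPM, whereas Scx had 8.46 to 12.2 and 2.30 to 3.97 CPM and Mkx 4.27 to 5.61 and 1.85 to 2.59 CPM, and Sox9 overlapped. Sums of other lists were also apart between CD26- and CD26+ controls: adipocyte (14.3 to 16.0 and 22.0 to 37.0 CPM), smooth muscle and pericyte (3095 to 3191 and 2625 to 2777 CPM), skeletal muscle (1.08 to 1.36 and 0.162 to 0.444 CPM), endothelial (2.81 to 3.45 and 1.41 to 2.74 CPM) and immune markers (24.2 to 28.6 and 18.6 to 21.6 CPM), while the Schwann cell sums overlapped. In CM the adipocyte (16.9 to 27.9 and 32.7 to 88.8 CPM), skeletal muscle (4.21 to 39.2 and 0.169 to 0.379 CPM), endothelial (3.20 to 7.39 and 1.44 to 2.68 CPM) and tendon, cartilage and bone sums (144 to 162 and 167 to 242 CPM) were apart. The part of these lists, tendon, cartilage and bone included, in the SLRP result was not tested. For the epithelial markers, their mean was added to the model, a choice made after the data were seen. The summed epithelial markers did not overlap between the cell types. This model therefore cannot tell the part of these markers from that of the cell type. In that model 2 of the 10 genes, Podn (log2 2.11, edgeR FDR 0.0276) and Ogn (log2 2.19, edgeR FDR 0.0159), were higher in CD26+ controls, where 6.80% of tested genes were higher and 6.60% lower. Of the calls lost, the log2 differences of Prelp (1.95, edgeR FDR 0.0511), Aspn (2.25) and Ecm2 (1.49) were no smaller than without the covariate, and those of Dcn (1.27), Bgn (0.75) and Omd (0.26) were smaller. For CM against control medium the same model passed 3 genes in CD26- NFs, where 4.07% of tested genes rose and 3.25% fell, and 6 in CD26+ NFs, against 15.1% and 13.0%. Aspn in CD26- NFs was lost, with a log2 fold change of -1.91 and an edgeR FDR of 0.0509.

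In tumour CM, 9 of the 10 genes were higher in CD26+ NFs and 0 lower, where 29.3% of tested genes were higher and 29.3% lower, and 3 passed the log2 limit against 4.16%. These 3 were Prelp with 9.42-fold (log2 3.24 ± 0.24 SE, edgeR FDR 6.44e-09), Podn with 6.44-fold (log2 2.69 ± 0.26 SE, edgeR FDR 1.11e-07) and Dcn with 5.11-fold (log2 2.35 ± 0.22 SE, edgeR FDR 9.34e-08). Podn had 0.776 to 2.34 CPM in CD26- and 6.30 to 13.0 CPM in CD26+ CM libraries. Every CD26+ library stood above every CD26- library for these 3 genes and for Bgn and Ogn. The share of all tested genes with such a separation is not given here. Ogn and Fmod were 2.82-fold, Ecm2 2.60-fold and Bgn 1.76-fold higher, with edgeR FDRs of 3.59e-05, 0.00260, 0.00103 and 5.36e-06. Lum had overlapping ranges in the cell types, 34.6 to 88.4 CPM in CD26- and 26.6 to 102 CPM in CD26+ libraries (log2 0.08 ± 0.28 SE, edgeR FDR 0.820). Aspn (2.31-fold, edgeR FDR 0.0366) and Omd (2.25-fold, edgeR FDR 0.0432) were also higher in CD26+ NFs with each of the 6 lines. With the CM line as a block and all 18 libraries in the fit, an alternative chosen after the data were seen, both passed (log2 1.16, edgeR FDR 0.000226, and log2 1.16, edgeR FDR 0.00499). Without the block their calls depended on single libraries. Without replicate 18 their FDRs were 0.160 and 0.161, and 7 genes passed. Aspn was also lost without replicate 4, 5, 6, 8 or 16 (edgeR FDRs 0.0620 to 0.0807) and Omd without replicate 3, 4, 5, 7, 8, 12 or 15 (edgeR FDRs 0.0507 to 0.0958). In a fit of only the CM groups Aspn was lost too (edgeR FDR 0.0721). With the epithelial marker mean in the model 4 passed, namely Prelp, Dcn, Podn and Ogn, where 8.38% of tested genes were higher and 6.89% lower. The log2 differences of Aspn, Fmod and Ecm2 were then 1.92, 1.77 and 1.50, no smaller than without it, and those of Bgn and Omd were 0.61 and 0.0758. The epithelial markers summed to 2944 to 4719 CPM in CD26- CM and 668 to 1615 CPM in CD26+ CM libraries.

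The 6 tumour lines did not act alike on the family. Among the 13344 genes tested for differences among CM lines, with the cell type in the model and Omd not among them, 6.56% passed at an FDR under 0.05. Of the 9 SLRP genes tested, 5 passed with edgeR: Aspn (FDR 0.00764), Fmod (FDR 0.0133), Lum (FDR 0.0164), Ogn (FDR 0.0350) and Bgn (FDR 0.0365). Each line had 1 library per cell type, and the count was 2 without replicate 7, 8, 16 or 17 and 3 without replicate 5 or 14. Aspn and Fmod passed in all 16 alternatives run, while Lum passed in 12, Ogn in 10 and Bgn in 8. Dcn and Prelp, which both rose with CM, did not pass (edgeR FDRs 0.199 and 0.605), nor did Podn (0.0949) and Ecm2 (0.484). Dcn passed without replicate 9 (edgeR FDR 0.00243), Podn without replicate 4 or 13 (edgeR FDRs 0.0405 and 0.0360), and both of these and Prelp with no filter on low counts.

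Fmod showed low and high levels by line. With CM of 13-MCB-17, 10-SJK-221 and 13-MCB-90 it had 29.3, 31.0 and 35.6 CPM in CD26- NFs and 134, 155 and 143 CPM in CD26+ NFs. With 18-MCB-12, 13-MCB-44 and 13-MCB-138 it had 93.8, 108 and 170 CPM in CD26- NFs and 289, 246 and 349 CPM in CD26+ NFs. The same 3 lines thus gave low fibromodulin in both cell types, and the other 3 gave levels between 93.8 and 170 CPM beside CD26- controls of 153 to 170 CPM, and between 246 and 349 CPM beside CD26+ controls of 243 to 287 CPM. Aspn had 9.23 and 8.49 CPM with 13-MCB-44 and 13-MCB-138 in CD26- NFs and 13.0 and 28.0 CPM in CD26+ NFs, the highest values of each cell type, and was lowest with 10-SJK-221 and 13-MCB-90 (1.82 and 1.78, then 4.43 and 4.88 CPM). Ogn was also lowest with 10-SJK-221 and 13-MCB-90, at 7.79 and 7.29 CPM in CD26- and 20.3 and 21.1 CPM in CD26+ NFs. Lum went the other way: 13-MCB-90 gave the highest level in both cell types, 88.4 and 102 CPM, and 10-SJK-221 gave 70.8 and 89.7 CPM, while 13-MCB-17 gave 34.6 and 42.8 CPM. In CD26+ NFs Lum was lower still with 13-MCB-138 (26.6 CPM) and 13-MCB-44 (39.8 CPM), which gave 47.3 and 41.0 CPM in CD26- NFs. The line with the highest lumican in both cell types, 13-MCB-90, was thus among the 2 lowest lines for asporin and osteoglycin in both. Bgn was highest with 13-MCB-138 (4357 and 7722 CPM) and 18-MCB-12 (4036 and 7372 CPM) in both cell types.

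**Figure D4:**
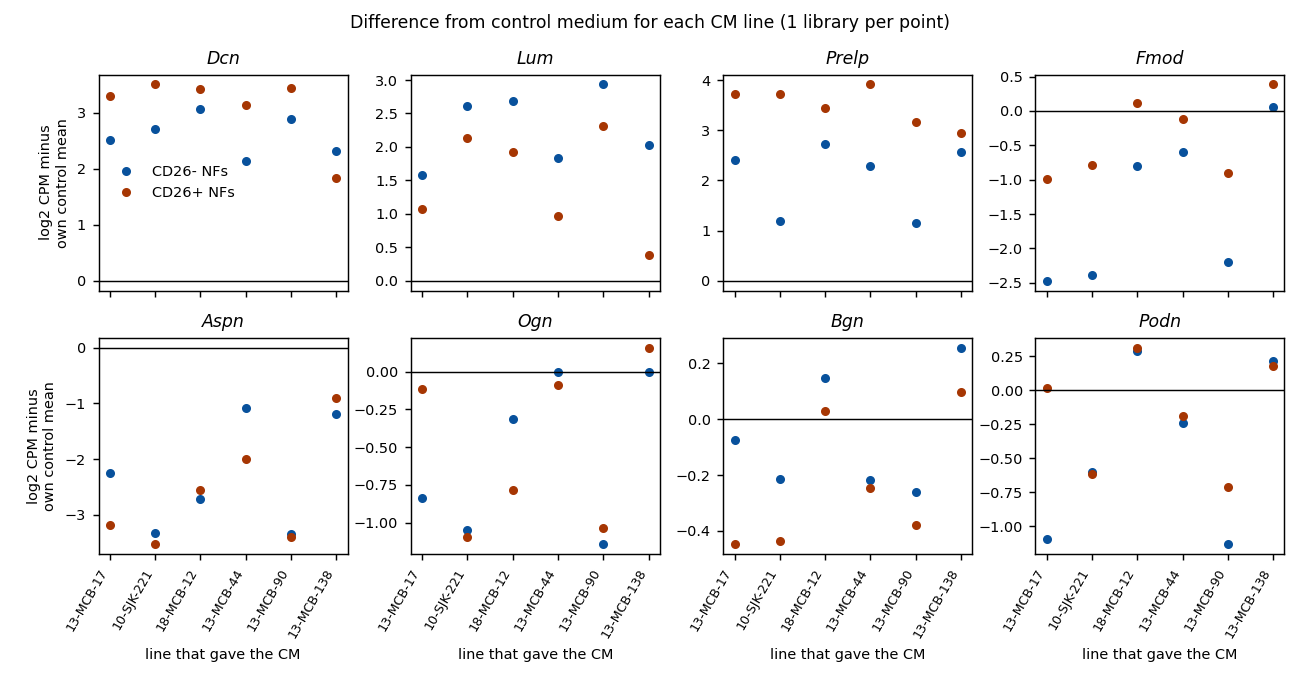
Log2 CPM of each CM library minus the mean of its own control libraries, for 8 genes by the line that gave the CM, with CD26- NFs in blue and CD26+ NFs in orange. Each point is 1 library, and the vertical axes differ between panels. Fmod lies lowest with 13-MCB-17, 10-SJK-221 and 13-MCB-90 in both cell types, and Dcn lies above 0 with every line.

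Neighbours on a chromosome were then set side by side. Dcn and Lum both rose in both cell types. Prelp rose 4.58- and 11.6-fold while Fmod, on the opposite strand 115.8 kb away, did not pass in either cell type. Among the 16 other tested genes within 500 kb of this pair, CM raised 2 and lowered 0 in CD26- NFs. In CD26+ NFs it raised 5 and lowered 1. Those raised there included opticin (Optc, chr1:133897199-133907999), a further SLRP gene beside Prelp on the same strand (log2 2.63 ± 0.54 SE, edgeR FDR 0.00153). On chromosome 13, Ecm2, Aspn and Omd fell in CD26+ NFs and Ogn, the last of the run, did not pass. Among the 10 other tested genes within 500 kb of that run, 0 fell with CM in either cell type, while 0 rose in CD26- and 2 in CD26+ NFs. Within 500 kb of any of the 10 SLRP genes there were 54 other tested genes, of which CM raised 3 and lowered 0 in CD26- NFs, and raised 9 and lowered 10 in CD26+ NFs. They lay on chromosomes 1, 4, 13 and X, and none lay near Dcn and Lum. The shares raised and lowered over all tested genes were 7.88% and 7.28% in CD26- and 15.2% and 13.4% in CD26+ NFs, and no difference of these neighbours from other genes was tested. Cenpp, a centromere protein gene on the minus strand, spans the whole chromosome 13 run (chr13:49464023-49652785) with 0.591 to 3.78 CPM, near the levels of Omd and Ecm2. It passed in none of the 4 comparisons of groups, and its log2 fold change with CM in CD26+ NFs was -0.90 ± 0.33 (SE, edgeR FDR 0.0518). The libraries were stranded, but the strand setting of the counting is not given in the sources used here, and reads of Cenpp and of the low genes Omd and Ecm2 may be confused. Scp2, a lipid transfer gene at 44.9 to 84.9 CPM, overlaps Podn on the same strand (chr4:108043839-108144998), so that the count of Podn is uncertain where their exons meet. Scp2 differed between the cell types in control medium by log2 0.60 ± 0.10 (SE), beside 2.50 for Podn.

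Over the 18 libraries Dcn and Prelp had a Pearson correlation of 0.94 in log2 CPM, and 0.16 once group means were removed, so that they shared the group pattern and not the spread within groups. Dcn and Lum had 0.80 and 0.79, and Dcn and Aspn -0.43 and -0.81. Bgn and Podn had 0.96 and 0.71, and Aspn and Ogn 0.75 and 0.81. The points share libraries, groups and CM lines, and these values are descriptions. The gene most like Dcn over all libraries was Adamts7 (Pearson r 0.98, n = 18), and the genes most like the others were Serpinf1 for Bgn (0.99), Postn for Aspn (0.98), Adamts3 for Ecm2 (0.96), Nxph3 for Lum (0.93), Crispld2 for Fmod (0.97), Stat5a for Prelp (0.97), Cygb for Omd (0.94), Plpp5 for Ogn (0.96) and Os9 for Podn (0.99).

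Of 8 further SLRP family genes, 4 were tested. Opticin (Optc) had at most 50 counts and rose with CM in CD26+ NFs by log2 2.63 ± 0.54 (SE, edgeR FDR 0.00153). Podocan-like 1 (Podnl1) followed Podn in being higher in CD26+ controls, by log2 1.97 ± 0.24 (SE, edgeR FDR 3.92e-06), and rose with CM in CD26- NFs by 0.81 ± 0.23 (SE, edgeR FDR 0.0262). Tsukushi (Tsku) stayed between 582 and 1101 counts and, like Chadl, passed in no comparison. Kera, Epyc, Chad and Nyx had at most 8 counts in a library.

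The enzymes that build and sulfate the chains were mostly not past the test for CM, with median log2 fold changes of -0.08 in CD26- and -0.02 in CD26+ NFs for chondroitin and dermatan sulfate. Of these 21 tested genes, CM raised 2 and lowered 3 in CD26- NFs, while it raised 3 and lowered 2 in CD26+ NFs. Over all tested genes the shares raised and lowered were 7.88% and 7.28% in CD26- NFs and 15.2% and 13.4% in CD26+ NFs, and the counts of this and the following lists, each of 9 to 21 genes, are to be read against them. Xylt1, which starts the chains by adding xylose to the core, rose in both (log2 0.63 ± 0.19 and 0.89 ± 0.17 SE, edgeR FDRs 0.0369 and 0.000763), as did the sulfotransferase Chst15 (log2 0.47 ± 0.11 and 0.78 ± 0.10 SE, edgeR FDRs 0.00886 and 3.45e-05). CD26+ controls had 14 of them at a higher and 3 at a lower level than CD26- controls, and in CM the counts were 15 and 1, where 25.0% and 25.4% of all tested genes were higher and lower in control medium and 29.3% and 29.3% in CM. Among the higher ones was Dse, the dermatan sulfate epimerase that acts on decorin and biglycan chains (log2 0.79 ± 0.07 and 0.68 ± 0.05 SE, edgeR FDRs 2.19e-07 and 1.12e-08). Of 9 tested keratan sulfate and sulfation genes, CD26- NFs in CM had 0 higher and 3 lower, and CD26+ NFs in CM had 1 higher and 3 lower. The keratan sulfate sulfotransferase Chst1 was among those that fell in both (log2 -0.48 ± 0.09 and -0.46 ± 0.09 SE, edgeR FDRs 0.00317 and 0.00123). Between the cell types, 5 of the 9 genes were higher and 2 lower in CD26+ controls, and 6 were higher and 3 lower in CM.

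The collagens that SLRPs bind had median log2 fold changes with CM of -0.27 in CD26- and -0.64 in CD26+ NFs. Of 13 tested, CM raised 0 and lowered 1 in CD26- NFs, and raised 1 and lowered 8 in CD26+ NFs, where 13.4% of all tested genes fell. Col3a1, a chain of fibrillar collagen III, fell in both (log2 -1.20 ± 0.39 and -1.82 ± 0.39 SE, edgeR FDRs 0.0447 and 0.00203), while Dcn rose in the same libraries. In CD26+ controls 10 of the 13 were higher and 0 lower, and in CM 9 were higher and 0 lower, beside 25.0% higher and 25.4% lower of all tested genes in control medium and 29.3% each way in CM. Among 10 proteases that act on SLRPs or collagen, Mmp3, a stromelysin that cleaves decorin, rose by log2 3.78 ± 0.73 (SE, edgeR FDR 0.00273) and 6.81 ± 0.88 (SE, edgeR FDR 2.52e-05) in CD26- and CD26+ NFs. CM raised 3 and lowered 3 proteases in CD26- NFs, and raised 3 and lowered 2 in CD26+ NFs.

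Among 11 receptors and growth factors that SLRPs bind, CM raised 1 and lowered 2 in CD26- NFs, and raised 5 and lowered 2 in CD26+ NFs. Egfr, a decorin receptor, rose in both by log2 0.39 ± 0.12 and 0.61 ± 0.13 (SE, edgeR FDRs 0.0422 and 0.00167). Tlr2, a biglycan receptor, rose in CD26+ NFs (log2 0.95 ± 0.18 SE, edgeR FDR 0.000876), had -0.34 ± 0.17 (SE) in CD26- NFs, and differed between the CM effects by 1.29 ± 0.24 (SE, edgeR FDR 0.00583). Of the ligands, Tgfb3 fell in both (log2 -0.80 ± 0.22 and -0.91 ± 0.22 SE, edgeR FDRs 0.0233 and 0.00530). Met, the other decorin receptor, had a lower level in CD26+ than in CD26- controls, opposite in direction to decorin (log2 -2.67 ± 0.23 SE, edgeR FDR 7.73e-08). Of 17 tested proteoglycan cores outside the family, CM raised 2 and lowered 3 in CD26- NFs, and raised 4 and lowered 2 in CD26+ NFs. Versican (Vcan), a large chondroitin sulfate proteoglycan, fell in CD26+ NFs (log2 -0.97 ± 0.14 SE, edgeR FDR 5.78e-05).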

How the data were processed

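RNA libraries were stranded, polyadenylated mRNA libraries, and the deposited table holds raw counts per gene made by the authors. The submitters' processing notes name HISAT2 2.1.0, HTSeq and GRCm38, while the annotation release and strand setting are not given in the sources used here. All 18 libraries were used, with groups and CM lines taken from the labels. In 36 pairs of replicates the smallest chi-square, divided by its degrees of freedom, was 3.10, so each library was counted as 1 sample. Genes were filtered with filterByExpr, scaled with TMM and tested in edgeR 4.0.16 (R 4.3.3) by quasi-likelihood F tests, in 1 model of the 4 groups with 5 contrasts, and in a separate fit for CM lines. The study used DESeq2, run here as an alternative (1.42.0). CPM use the TMM-scaled library size, and log2 CPM a prior count of 2. The scripts were tested on simulated data. Residuals from group means were compared between the 2 libraries of a line, whose Pearson r lay between 0.247 and 0.406 for the 6 lines, so the line pairs the samples and served as a block in an alternative. Other alternatives changed scaling, filter, log2 limit, samples in the fit and left out each library, and gene length was changed for levels per kilobase. The epithelial marker mean as a covariate, the gene length and the promoter motifs, including a stricter NF-kB pattern that replaced a looser one, were chosen after seeing the data. The 10 genes, the gene lists and the markers were chosen with earlier results of these data known. The rule for named genes took all 10 genes, further family genes with their counts, tested neighbours within 500 kb, the 3 tested genes most correlated with each of the 10, and from each other list up to 3 genes per direction and comparison, those with the lowest p among genes that passed with a group mean of at least 5 CPM. Which neighbours (Cenpp, Scp2) and marker genes (Tnmd, Sp7, Scx, Mkx, Sox9, Myog, Csf1r, Cd68, Lyz2, Ptprc, Pdgfra, Pdgfrb, Fap, Thy1, Col1a1, Krt18, Cdh1) to describe was chosen after their values were seen. A row with no gene name held 0 counts and was left out. The full genotype of the tumour model is not reported here. No sequencing batch is given in the labels, and none could be tested.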

Additional observations from a re-analysis of the deposited data

Results flagged for a closer look

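Dcn in CD26+ NFs in tumour CM had 1 library far from the other 5. Replicate 18, given CM of 13-MCB-138, measured 1378 CPM, and its gap to the next library in log2 CPM was 0.784 of the range of the group, above Dixon's critical value of 0.625 for 6 libraries. The same test was made in 20 combinations of gene and CM group, and chance flags about 1 in 20. The CD26- library given CM of the same line, replicate 9, had 556 CPM of Dcn, the second lowest of its group. Replicate 18 also had the lowest Lum (26.6 CPM) and Prelp (85.7 CPM) and the highest Aspn (28.0 CPM) and Omd (1.52 CPM) of the CD26+ CM libraries.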

How the results depend on the processing

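With the study's log2 limit, 3 genes passed for CM in CD26+ NFs, 1 for cell type in control medium and 3 for cell type in CM. For the difference in CM effect the count was 1 with DESeq2, 2 with the CM line as a replicate block and 0 to 1 when a library was left out, the 1 being Dcn without replicate 18. The block was run for this difference and for cell type in CM, and changed no other call in these 2 comparisons. Omd was filtered out of the block fit of the 12 CM libraries, and passed in that of all 18 libraries. The number of genes that differed among CM lines was 8 with no filter on low counts and 2 to 6 when a library was left out. Shares over all tested genes were computed only for the main fit and for that with the epithelial marker mean. The counts from other fits thus have no such share beside them. With the epithelial marker mean as a covariate, 2 genes passed for cell type in control medium and 4 in CM, Lum reversed to -0.17 in control medium and -0.83 in CM, and the difference in CM effect of Ogn was -0.0359. Upper-quartile scaling reversed the difference of Ecm2, at -0.00528. Leaving out a library reversed only values that did not pass. The difference in CM effect ranged from -0.15 to 0.29 for Ecm2, -0.0772 to 0.20 for Ogn, -0.82 to 0.00314 for Omd and -0.78 to 0.0867 for Aspn. The log2 value of Lum between cell types in CM ranged from -0.11 to 0.24, and that of Podn for CM in CD26+ NFs from -0.29 to 0.0627. Low counts limit Omd and Ecm2, with 1 to 34 and 4 to 66 counts per library, and the order of levels per kilobase depends on the length used. Over all alternatives, 1143 log2 fold changes of the 10 genes kept direction and side of the threshold, 36 lost the call, 12 gained it and 26 reversed.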
